A study of Mus musculus with 13 samples.

Results

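Genes that neurons switch on or use after damage to an axon were followed in the mouse brain on day 4 after controlled cortical impact (CCI), a traumatic brain injury made by driving a piston into exposed cortex, or after a sham operation. The 10 genes are Atf3, Sprr1a, Gal, Ecel1, Gap43, Sox11, Gadd45a, Adcyap1, Stmn2 and Klf6. They were picked by name, as the rows carrying these symbols, and all 10 were among the 14875 genes that passed the filter on low counts. Atf3 and Sprr1a passed it only through the CCI ipsilateral libraries.

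Messenger RNA was sequenced from 13 hemispheres of 7 mice, all male, wild type, of strain C57BL/6 and 12 to 16 weeks of age. Mice numbered 1, 2, 3 and 5 received CCI, and both of their hemispheres were sequenced: the impacted one (CCI ipsilateral, n = 4) and the opposite one (CCI contralateral, n = 4). Of the sham mice, both hemispheres of numbers 4 and 6 and the contralateral hemisphere of number 8 were sequenced (sham ipsilateral, n = 2, and sham contralateral, n = 3). All mice were perfused before dissection. A library mixes the cell types of a hemisphere sample, so more RNA per cell and more cells that make it cannot be told apart. Ipsilateral samples carry RH and contralateral ones LH in their names, so right or left cannot be told apart from the side of surgery. Libraries held 5604856 to 7955076 counts, with 6.79% to 9.03% of them from mitochondrially encoded genes. The CCI ipsilateral libraries stood apart on the first principal component of the 500 most variable genes, at 22.6 to 34.4 against -18.3 to -5.10 in the other libraries.

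A neuron whose axon is cut sends an injury signal back to its cell body, where stress kinases activate a set of transcription factors that includes Atf3, Jun, Sox11 and Klf6. These factors turn on effectors: cytoskeletal and growth cone proteins that rebuild the axon, such as Gap43, Stmn2 and Sprr1a, and neuropeptides such as Gal and Adcyap1. The programme is best known from sensory and motor neurons of peripheral nerves, which regrow, while most neurons with axons inside the brain do not. Several of the genes are also made outside injured neurons: Atf3, Gadd45a and Klf6 respond to stress in many cell types, and Sprr1a is a protein of the outer skin layer.

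The promoters of 8 of the 10 genes were found in RefSeq (GRCm38.p6), as the 250 bases before each annotated start. Adcyap1 had 2 such starts. Gap43 and Stmn2 had no entry. The windows of Atf3, Sprr1a and Gal are printed because these genes had the largest fold differences of the 10 between the hemispheres of CCI mice. Capitals mark matches, on either strand, to the motifs searched: TGACGTCA (the cyclic AMP response element), TGANTCA (the AP-1 site, bound by Jun and Fos dimers and, as a partner, by Atf3), TGATGNAA (an element for C/EBP-ATF dimers) and CCGCCC (the GC box of Sp and Klf factors). Each is written 5′ to 3′ along the gene, which lies on the minus strand in all 3 cases.
Atf3, chr1:191183334-191183583: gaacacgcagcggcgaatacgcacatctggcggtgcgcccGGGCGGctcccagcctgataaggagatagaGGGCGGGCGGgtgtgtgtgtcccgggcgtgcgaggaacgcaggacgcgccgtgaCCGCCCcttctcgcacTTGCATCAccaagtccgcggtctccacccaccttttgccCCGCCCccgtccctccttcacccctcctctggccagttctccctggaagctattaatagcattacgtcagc
Sprr1a, chr3:92485882-92486131: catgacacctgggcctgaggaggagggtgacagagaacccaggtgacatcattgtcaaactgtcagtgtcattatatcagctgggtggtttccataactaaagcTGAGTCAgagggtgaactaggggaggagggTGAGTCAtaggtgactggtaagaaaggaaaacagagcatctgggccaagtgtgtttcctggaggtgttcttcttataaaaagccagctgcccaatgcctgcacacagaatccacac
Gal, chr19:3414545-3414794: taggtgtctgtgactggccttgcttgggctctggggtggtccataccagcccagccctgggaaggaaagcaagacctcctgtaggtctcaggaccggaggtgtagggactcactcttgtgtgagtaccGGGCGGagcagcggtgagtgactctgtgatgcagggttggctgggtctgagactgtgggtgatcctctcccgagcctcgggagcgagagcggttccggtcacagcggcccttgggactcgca

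The Sprr1a window held 2 AP-1 matches, at -146 and -116 bases from the start, and 6.75% of 32851 RefSeq promoters of the same length held at least 1. The Atf3 window held 1 C/EBP-ATF match at -110 bases from the start (3.45% of promoters) and 5 GC box matches (32.7% of promoters), of which 2 overlap each other. The Gal window held 1 GC box match. None of the windows of the 8 genes held the exact cyclic AMP response element TGACGTCA, which 1.55% of promoters held. Variants of this motif were not searched for. A match describes the letters and is not a measured binding site. The Atf3 and Sprr1a starts of RefSeq lie inside the genes as GENCODE M21 annotates them, which begin further upstream.

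CCI was compared with sham in the ipsilateral hemisphere, the side of the impact. Atf3 and Sprr1a, near the detection limit in sham, rose the most, and all 4 CCI libraries shared the rise. Ecel1 and Gal rose by a little over 1 on the log2 scale, and Klf6 rose slightly. Sox11, Gap43, Stmn2, Gadd45a and Adcyap1 did not pass the test. In all, 5 of the 10 genes were higher in CCI and 0 lower at an adjusted p under 0.05 (edgeR's quasi-likelihood test, Benjamini-Hochberg over all genes tested), where 12.5% of all genes tested were called higher and 22.5% called in either direction. The median log2 fold change of the 10 genes was 0.25, against 0.0041 over all genes tested. Atf3 and Sprr1a passed the filter only through the CCI ipsilateral libraries, and the 10 genes were chosen with earlier results of these data known. The count and the median are therefore descriptions and no test of the 10 genes as a set. In 5 of the genes every CCI library lay above both sham libraries (21.8% of all genes tested) and in 2, Gadd45a and Stmn2, every CCI library lay below them (19.6%).

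**Figure D1:**
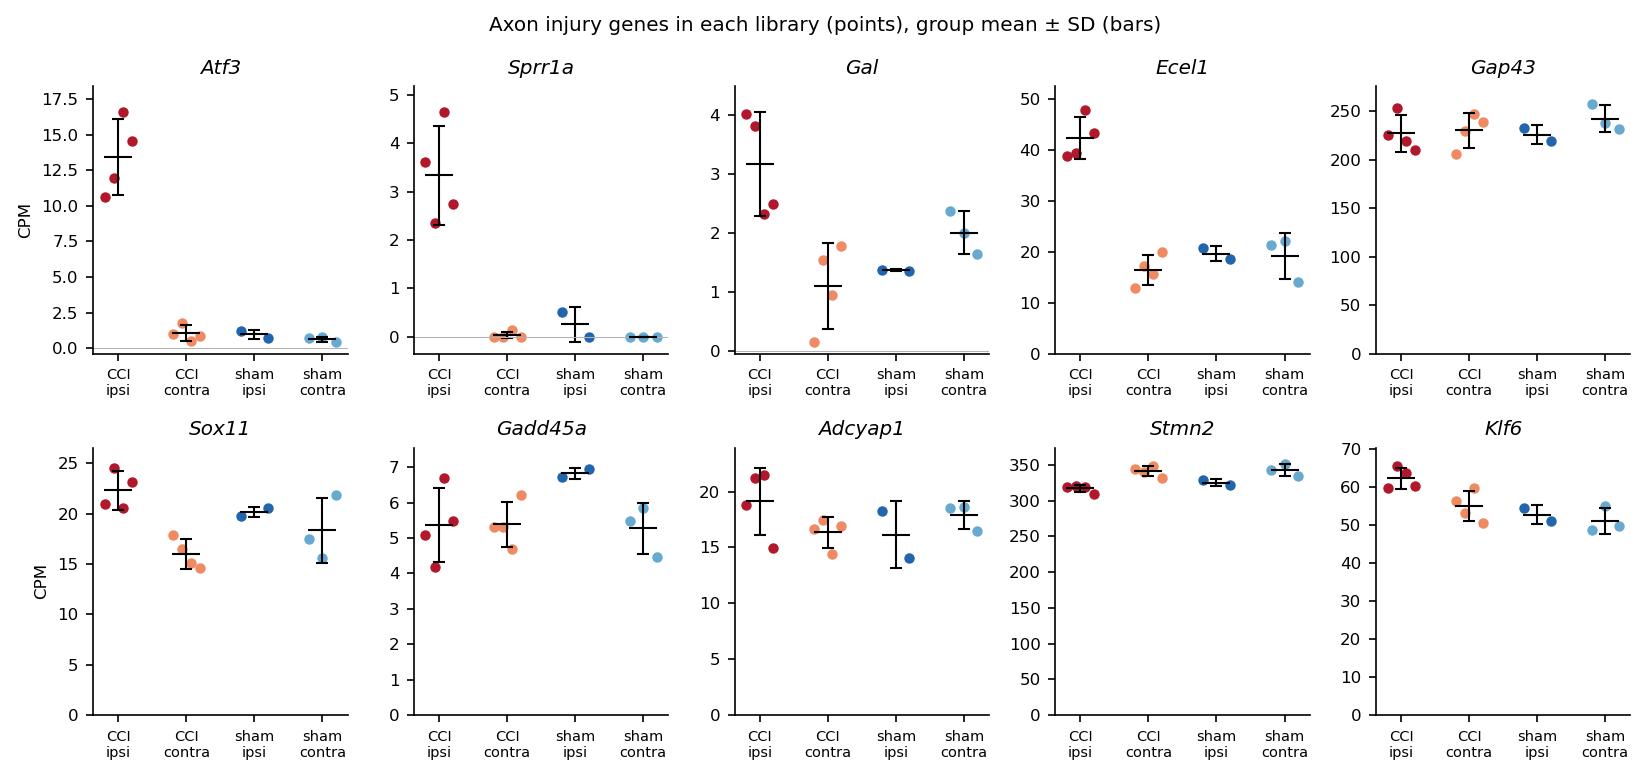
Level in CPM (counts scaled to library size, with TMM factors; linear axes that include 0) of the 10 genes in each library by group; points are libraries and black bars the mean ± SD (n = 4, 4, 2 and 3). In Atf3, Sprr1a and Ecel1 the 4 CCI ipsilateral libraries lie above all others, in Gal the lowest of them (2.33 CPM) lies just under the highest sham contralateral one (2.38 CPM), and Gap43 and Stmn2 lie within a narrow band in all groups.

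Atf3 (ENSMUSG00000026628.11, chr1:191170296-191218039, minus strand, GRCm38) encodes a transcription factor of the ATF/CREB family and is a standard marker of injured neurons. The CCI ipsilateral libraries held 79, 97, 121 and 117 Atf3 counts in animals 1, 2, 3 and 5, and the sham ipsilateral ones 7 and 5 in animals 4 and 6. All 4 CCI libraries were far above both sham libraries, and the groups did not overlap. Atf3 averaged 13.4 ± 2.66 CPM in CCI ipsilateral (SD, n = 4) and 0.980 ± 0.319 CPM in sham ipsilateral libraries (n = 2). Its fitted log2 fold change was 3.77 ± 0.34 (SE), or 13.6-fold, with an adjusted p of 2.05e-09. Leaving out any 1 library moved the log2 fold change between 3.46 and 4.12 and never ended the call.

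Sprr1a (ENSMUSG00000050359.7, chr3:92483952-92485895, minus strand) encodes a small proline-rich protein of the cornified envelope of skin, and in regrowing sensory neurons it lies along axonal actin. The CCI ipsilateral libraries held 27, 19, 34 and 22 Sprr1a counts in animals 1, 2, 3 and 5, against 3 and 0 in sham ipsilateral animals 4 and 6. All 4 CCI libraries were above both sham libraries. Over the groups this was 102 counts in CCI and 3 in sham, a ratio per mapped count of 13.7 with an exact 95% interval of 4.55 to 67.4 that covers counting error only. The adjusted p was 0.000125. All 3 sham counts came from animal 4, and the adjusted p was 0.000582 without that library and 0.0197 without sham ipsilateral animal 6. The other 8 genes of the small proline-rich family that were looked up, Sprr1b, Sprr2a1, Sprr2d, Sprr2e, Sprr2f, Sprr2h, Sprr3 and Sprr4, are listed at 0 in all 13 libraries. Vim and Nmnat2, which brain tissue expresses widely, are listed at 0 in all 13 libraries too, so a row of zeros does not show absence. Markers of skin and epithelium were low: the 8 summed to 9.93 to 15.8 TPM in CCI ipsilateral and 14.3 to 15.1 TPM in sham ipsilateral libraries, 0 of the 4 tested were called, and Krt5 and Krt14, keratins of the basal skin layer, averaged 0.0308 CPM each in CCI ipsilateral and 0 in sham ipsilateral libraries.

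Ecel1 (ENSMUSG00000026247.11, chr1:87147655-87156521, minus strand) encodes a membrane protease of the endothelin-converting enzyme family that is induced in neurons by nerve damage. The CCI ipsilateral libraries held 289, 320, 350 and 349 counts in animals 1, 2, 3 and 5, against 120 and 123 in sham ipsilateral animals 4 and 6. All 4 CCI libraries were above both sham libraries. Ecel1 averaged 42.4 ± 4.21 CPM in CCI ipsilateral (n = 4) and 19.6 ± 1.48 CPM in sham ipsilateral libraries (n = 2). The log2 fold change was 1.11 ± 0.16 (2.16-fold, adjusted p 1.75e-05) and stayed between 1.03 and 1.19 whichever library was left out.

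Gal (ENSMUSG00000024907.6, chr19:3409915-3414544, minus strand) encodes the precursor of galanin, a neuropeptide that sensory neurons raise after nerve injury and that hypothalamic neurons make at all times. The CCI ipsilateral libraries held 30, 31, 17 and 20 counts in animals 1, 2, 3 and 5, against 8 and 9 in sham ipsilateral animals 4 and 6. The groups did not overlap, but the CCI libraries differed among themselves by more than the lowest of them from sham. The means were 3.17 ± 0.88 CPM in CCI ipsilateral (n = 4) and 1.37 ± 0.01 CPM in sham ipsilateral libraries (n = 2), a log2 fold change of 1.20 ± 0.44 with an adjusted p of 0.0493. This call did not survive DESeq2 (adjusted p 0.151), limma voom (0.113), limma on log2(TPM + 1) (0.159) or the animal entered as a block (0.121), nor 8 of the 13 leave-outs, of which leaving out sham ipsilateral animal 6 gave the highest adjusted p, 0.249.

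Klf6 (ENSMUSG00000000078.6, chr13:5861482-5870394, plus strand) encodes a zinc finger transcription factor that favours axon growth in retinal and cortical neurons. It averaged 62.4 ± 2.76 CPM in CCI ipsilateral (n = 4) and 52.8 ± 2.52 CPM in sham ipsilateral libraries (n = 2). The lowest CCI library, at 59.8 CPM, lay above the higher sham library, at 54.6 CPM. The log2 fold change was 0.24 ± 0.08, or 1.18-fold, with an adjusted p of 0.0345. The call was lost in 2 of 9 other settings, among them DESeq2 (0.108), and in 4 of 13 leave-outs. These were the leave-outs of CCI ipsilateral animal 2 (0.0614), CCI ipsilateral animal 3 (0.0697), sham ipsilateral animal 4 and sham ipsilateral animal 6.

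The other 5 genes did not pass the test in this comparison. Sox11 (ENSMUSG00000063632.6, chr12:27334264-27342574, minus strand), a transcription factor of immature and regrowing neurons, averaged 22.3 ± 1.90 CPM in CCI ipsilateral and 20.2 ± 0.51 CPM in sham ipsilateral libraries. Its log2 fold change was 0.15, with an approximate 95% interval of -0.11 to 0.40. Adcyap1 (ENSMUSG00000024256.6, chr17:93199017-93206537, plus strand), the precursor of the neuropeptide PACAP, averaged 19.1 ± 3.03 CPM in CCI ipsilateral and 16.1 ± 2.98 CPM in sham ipsilateral libraries, a log2 fold change of 0.25 with an interval of -0.04 to 0.54. The CCI libraries of Adcyap1 ran from 14.9 to 21.5 CPM and overlapped the sham libraries at 14.0 and 18.3 CPM.

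Gap43 (ENSMUSG00000047261.9, chr16:42248442-42340651, minus strand), a membrane protein of growth cones and of mature terminals, averaged 227 ± 18.7 CPM in CCI ipsilateral and 226 ± 9.50 CPM in sham ipsilateral libraries. The log2 fold change of 0.01 had an interval of -0.14 to 0.16. Stmn2 (ENSMUSG00000027500.10, chr3:8509360-8561606, plus strand), a tubulin-binding protein of growing axons also called SCG10, averaged 317 ± 4.82 CPM in CCI ipsilateral and 325 ± 4.93 CPM in sham ipsilateral libraries, a log2 fold change of -0.04 with an interval of -0.14 to 0.07. At these depths both genes had narrow intervals, and changes as large as that of Ecel1 lie outside them.

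Gadd45a (ENSMUSG00000036390.6, chr6:67035096-67037457, minus strand), a stress protein that acts in DNA repair and growth arrest, averaged 5.37 ± 1.04 CPM in CCI ipsilateral and 6.83 ± 0.16 CPM in sham ipsilateral libraries. The log2 fold change was -0.35 with an interval of -0.78 to 0.08 and an adjusted p of 0.279. The highest CCI library, at 6.71 CPM, lay just under the lower sham library, at 6.72 CPM. These values are uncertain, since Gadd45a shares 337 exonic bases with the gene E230016M11Rik on the opposite strand, and its estimated counts were not whole in any of the 13 libraries.

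**Figure D2:**
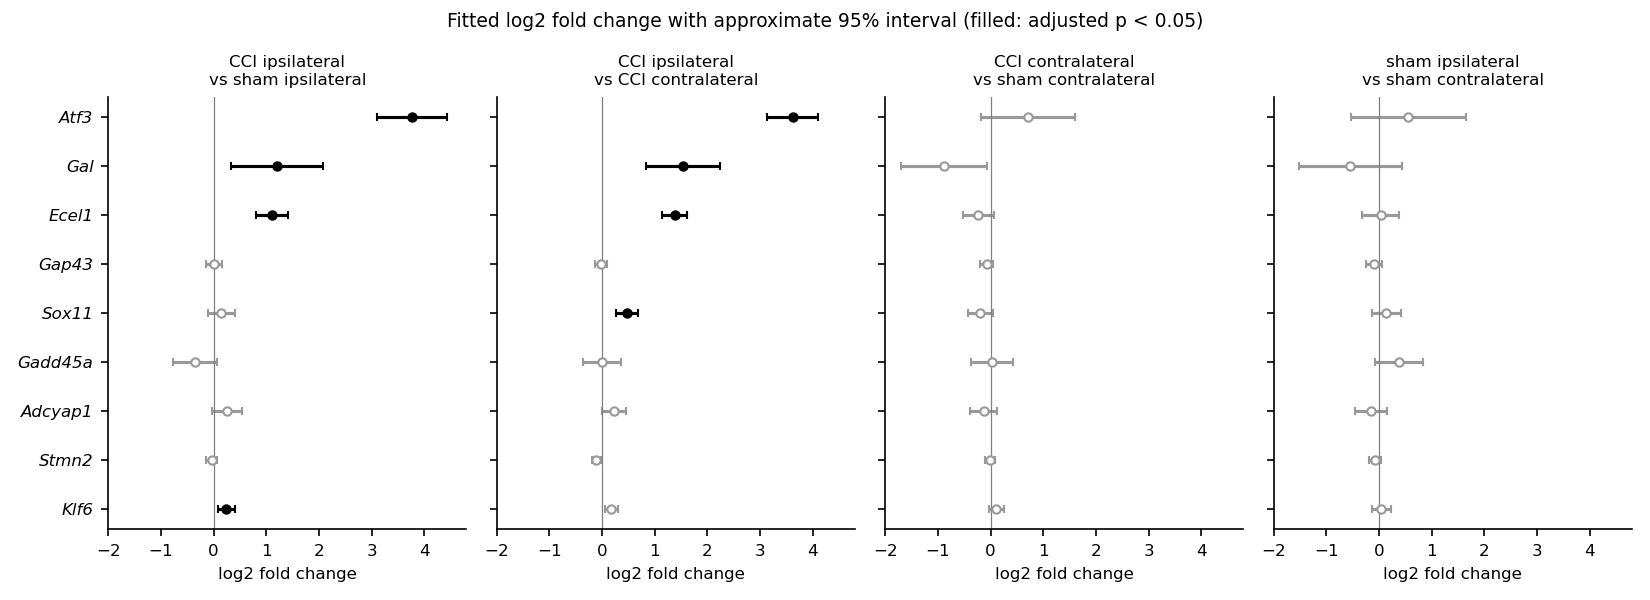
Fitted log2 fold change (x axis, first group over second) with approximate 95% intervals for 9 of the genes in 4 comparisons; filled points have an adjusted p under 0.05 and open ones do not. Sprr1a is left out because its counts in the other groups are 0 to 3. Atf3 stands at 3.77 and 3.62 in the 2 comparisons of CCI ipsilateral libraries, and no gene is called in the other panels.

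Markers of other cell types moved with these genes. The 10 markers of microglia and macrophages summed to 1223 to 1947 TPM in CCI ipsilateral and 221 to 223 TPM in sham ipsilateral libraries, and 10 of 10 rose. Those of infiltrating monocytes summed to 16.7 to 38.0 TPM in CCI ipsilateral and 0.859 to 1.31 TPM in sham ipsilateral libraries, where Ly6c2 and Arg1 were at 0, and 3 of 3 tested rose. Fibroblast markers summed to 221 to 319 TPM in CCI ipsilateral and 133 to 135 TPM in sham ipsilateral libraries, with 6 of 8 called higher, and astrocyte markers to 3484 to 4674 and 2328 to 2386 TPM in the same order, with 6 of 9 called higher. Neuronal markers summed to 5482 to 6119 TPM in CCI ipsilateral and 7015 to 7261 TPM in sham ipsilateral libraries, and 8 of 10 fell. Of oligodendrocyte markers 4 of 8 and of endothelial markers 2 of 8 were called higher, and of neutrophil markers 0 of 2. The part of these cell types in the changes of Atf3, Sprr1a, Ecel1, Gal and Klf6 was not tested.

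Markers of peripheral sensory neurons and Schwann cells, the cells in which the programme is best known, were low everywhere. The 8 that had a row summed to 11.6 to 15.6 TPM in CCI ipsilateral and 7.92 to 14.7 TPM in sham ipsilateral libraries, and 0 of 5 tested were called. Those of newborn neurons, which also use Sox11 and Stmn2, summed to 345 to 394 TPM in CCI ipsilateral and 288 to 305 TPM in sham ipsilateral libraries, with 2 of 10 higher (Cd24a and Tubb2b) and 1 lower (Nrep). Dcx, a defining marker of newborn neurons, averaged 51.1 ± 2.3 CPM in CCI ipsilateral and 55.0 ± 7.2 CPM in sham ipsilateral libraries and was not called.

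The ipsilateral hemisphere was next compared with the contralateral one of the same CCI mice. Here too 5 of the 10 genes were higher and 0 lower, where 12.8% of all genes tested were called higher, 8.9% lower and 21.7% in either direction. Atf3, Sprr1a, Gal and Ecel1 were called again, and Sox11 but not Klf6. The comparison shares the CCI ipsilateral libraries with the one above, so the calls of both rest on the same 4 libraries. Atf3 and Sprr1a passed the filter only through these libraries, so the count is again a description. The groups did not overlap in the 5 genes called (12.9% of all genes tested had every ipsilateral library higher) and in Stmn2, where every ipsilateral library was lower (9.81%).

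Atf3 had 414 counts over the CCI ipsilateral and 29 over the CCI contralateral libraries, or 13.4 ± 2.66 CPM in CCI ipsilateral and 1.07 ± 0.54 CPM in CCI contralateral libraries (n = 4 each). The log2 fold change was 3.62 ± 0.25 with an adjusted p of 5.05e-12. Within each animal the ipsilateral hemisphere was 10.3, 6.59, 30.8 and 16.4 times higher in animals 1, 2, 3 and 5. All 4 animals showed the same direction.

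Sprr1a had 102 counts in the CCI ipsilateral and 1 count in the CCI contralateral libraries, a ratio of 89.2 with an exact 95% interval of 15.6 to 3555 for counting error, and an adjusted p of 1.54e-07. The single contralateral count was in animal 3, which also had the most Sprr1a on the ipsilateral side, 34 counts.

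Ecel1 averaged 42.4 ± 4.21 CPM in CCI ipsilateral and 16.4 ± 2.96 CPM in CCI contralateral libraries (n = 4 each), a log2 fold change of 1.38 ± 0.12 with an adjusted p of 5.87e-08. The ipsilateral side was 3.02, 2.30, 3.05 and 2.18 times higher in animals 1, 2, 3 and 5. Gal averaged 3.17 ± 0.88 CPM in CCI ipsilateral and 1.10 ± 0.73 CPM in CCI contralateral libraries, a log2 fold change of 1.54 ± 0.36 with an adjusted p of 0.00197. The Gal ratio between the sides ran from 1.40 in animal 5 to 27.3 in animal 1, whose contralateral library held 1 Gal count.

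Sox11 averaged 22.3 ± 1.90 CPM in CCI ipsilateral and 16.0 ± 1.47 CPM in CCI contralateral libraries, a log2 fold change of 0.48 ± 0.11 with an adjusted p of 0.00127. It was higher on the ipsilateral side in 4 of 4 CCI mice, by 1.17 to 1.59 times. In the sham mice it was also higher on the ipsilateral side in 2 of 2, by 1.13 and 1.32 times, and the difference between these hemisphere effects was not called (0.34, interval -0.01 to 0.69, adjusted p 0.269).

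Klf6 averaged 62.4 ± 2.76 CPM in CCI ipsilateral and 55.1 ± 3.94 CPM in CCI contralateral libraries, with an adjusted p of 0.0542, and Stmn2 317 ± 4.82 and 341 ± 7.24 CPM in the same order, with an adjusted p of 0.0843. With the animal as a block, which compares the hemispheres within each mouse, the 2 genes passed the test: Klf6 at 0.18 on the log2 scale with an adjusted p of 0.0357, and Stmn2 at -0.11 with 0.0338 (edgeR, fixed block). Stmn2 was lower on the ipsilateral side in 4 of 4 CCI mice, at 0.914 to 0.939 times the contralateral level, and in 2 of 2 sham mice, at 0.915 and 0.958 times. The difference of the hemisphere effects of Stmn2 between CCI and sham was -0.03 with an interval of -0.18 to 0.11.

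Gap43, Gadd45a and Adcyap1 did not pass the test between the hemispheres of CCI mice. Gap43 averaged 227 ± 18.7 CPM in CCI ipsilateral and 230 ± 18.0 CPM in CCI contralateral libraries, and was higher on the ipsilateral side in 2 of the 4 animals. Gadd45a averaged 5.37 ± 1.04 and 5.39 ± 0.63 CPM in the same order. Adcyap1 averaged 19.1 ± 3.03 CPM in CCI ipsilateral and 16.4 ± 1.36 CPM in CCI contralateral libraries, and was higher in 3 of 4 animals, with animal 5 at 0.884 times. Without CCI ipsilateral animal 5 it would have been called, at an adjusted p of 0.0447.

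**Figure D3:**
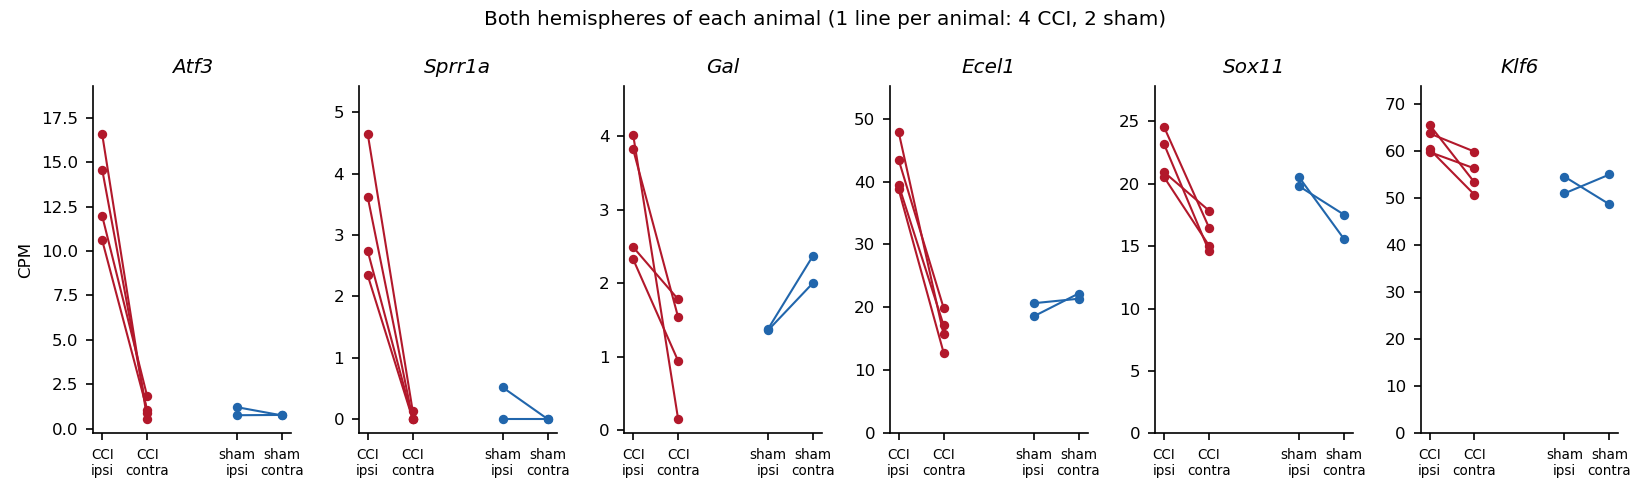
CPM (linear axes) of 6 genes in both hemispheres of the 4 CCI and 2 sham mice sampled on both sides; each line joins the ipsilateral and contralateral library of an animal. Lines fall toward the contralateral side in all 4 CCI animals for each of the 6 genes, and Gal and Ecel1 lines run the other way in both sham animals.

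The contralateral hemispheres of CCI and sham mice were compared to show what differed away from the impact. Of the 10 genes 0 were called by edgeR, where 0.0941% of all genes tested were called (0.0807% higher and 0.0134% lower). At an unadjusted p of edgeR under 0.05 there was 1 of the 10, Gal, and 1021 of the 14875 genes tested. DESeq2, limma voom and limma on TPM called 0 of the 10 as well. In 0 of the 10 were the groups without overlap, where 4% of all genes tested had every CCI library higher and 3.36% every one lower. Gal averaged 1.10 ± 0.73 CPM in CCI contralateral (n = 4) and 2.01 ± 0.37 CPM in sham contralateral libraries (n = 3), a log2 fold change of -0.88 with an adjusted p of 0.704. Without animal 1 it was -0.52. Markers of microglia and macrophages summed to 349 to 426 TPM in CCI contralateral and 206 to 294 TPM in sham contralateral libraries. Of these 10 markers 2 were called higher and 0 lower.

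Atf3 averaged 1.07 ± 0.54 CPM in CCI contralateral and 0.653 ± 0.180 CPM in sham contralateral libraries, from 29 and 13 counts in all. The log2 fold change of 0.70 had an interval of -0.18 to 1.59, and the change of 3.77 on the impact side lies outside it. Sprr1a had 1 count in CCI contralateral and 0 in sham contralateral libraries, where 0 counts allow up to 0.150 CPM over the group. Ecel1 averaged 16.4 ± 2.96 and 19.2 ± 4.53 CPM in the same order, a log2 fold change of -0.23 with an interval of -0.53 to 0.06. For Gap43, Sox11, Gadd45a, Adcyap1, Stmn2 and Klf6 the log2 fold changes lay between -0.19 and 0.11.

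The hemispheres of sham mice were compared as a check on what surgery without impact, or right against left, did to the genes. By edgeR 0 of the 10 were called, against 0.00672% of all genes tested. Its unadjusted p was under 0.05 in 1 of the 10, Sprr1a, and in 908 of the 14875 genes tested. The Sprr1a value rests on 3 counts in sham ipsilateral animal 4, against 0 in every sham contralateral library. DESeq2, limma voom and limma on TPM also called 0. The groups did not overlap in Gadd45a, higher in both sham ipsilateral libraries (10.1% of all genes tested were), nor in Gal and Stmn2, lower in both (11%). Atf3 averaged 0.980 ± 0.319 CPM in sham ipsilateral (n = 2) and 0.653 ± 0.180 CPM in sham contralateral libraries (n = 3). Gal averaged 1.37 ± 0.01 CPM in sham ipsilateral and 2.01 ± 0.37 CPM in sham contralateral libraries, lower in both of the paired animals, at 0.580 and 0.678 times.

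The hemisphere effect itself was then compared between CCI and sham mice, which takes off what the sides differed by without an impact. Of the 10 genes 3 were called, all of them upward, where 7.83% of all genes tested were (4.84% higher and 2.99% lower). This count too is a description, as Atf3 passed the filter only through the CCI ipsilateral libraries. For Atf3 the difference of log2 fold changes was 3.07 ± 0.65 with an adjusted p of 0.00324. For Ecel1 it was 1.35 ± 0.22 with an adjusted p of 0.000679, from ratios of 2.18 to 3.05 in the 4 CCI mice and of 0.967 and 0.836 in the 2 sham mice. For Gal it was 2.09 ± 0.61 with an adjusted p of 0.0307, from ratios of 1.40 to 27.3 in CCI mice and of 0.580 and 0.678 in sham mice. The Gal difference was no longer called with DESeq2 (0.0778), on TPM (0.104) or without CCI contralateral animal 1 (0.0516). In all, 7 of the 13 leave-outs ended this call, with adjusted p up to 0.142 (without sham ipsilateral animal 6), as did 4 of 9 other settings, with adjusted p up to 0.214. Sprr1a, with 0 counts in sham contralateral libraries, could not be measured by this difference (adjusted p 0.905).

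Gal levels were set beside markers of the hypothalamus, a region that a hemisphere sample can hold more or less of. The 10 hypothalamic markers, such as Pmch, Hcrt and Oxt, summed to 302, 219, 142 and 162 TPM in CCI ipsilateral animals 1, 2, 3 and 5, where Gal stood at 12.7, 12.3, 7.61 and 7.94 TPM. In CCI contralateral animals 1, 2, 3 and 5 they summed to 18.7, 126, 150 and 134 TPM, and Gal to 0.459, 4.84, 2.92 and 5.52 TPM. In sham ipsilateral animals 4 and 6 the sums were 165 and 101 TPM with Gal at 4.31 and 4.16 TPM. In sham contralateral animals 4, 6 and 8 they were 223, 178 and 166 TPM with Gal at 7.34, 6.16 and 4.98 TPM. Within groups Gal ranked the libraries as the sums did, except in CCI contralateral libraries. There animal 3 had the highest sum and less Gal than animals 2 and 5. Between groups the ranks matched only in part. Over all libraries CCI ipsilateral animal 1 was the highest and CCI contralateral animal 1 the lowest in both. CCI ipsilateral libraries at 142 and 162 TPM, however, held more Gal than sham libraries at 165 and 166 TPM.

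The library of CCI contralateral animal 1 had the lowest Gal and the lowest hypothalamic sum of the 13, with 1 count of Hcrt (orexin) and 0 of Oxt (oxytocin), against 21 to 28 and 20 to 27 in the other CCI contralateral libraries. Of the hypothalamic markers 0 of 7 tested were called between CCI and sham ipsilateral libraries. Between CCI ipsilateral and CCI contralateral libraries 1 of 7 was higher, and in the difference of hemisphere effects also 1 of 7. Their median log2 fold changes in these 3 comparisons were 0.59, 0.75 and 1.00, where Gal stood at 1.20, 1.54 and 2.09. Between the contralateral hemispheres of CCI and sham mice the median was -1.10, with Gal at -0.88. Between the sham hemispheres it was -0.51, with Gal at -0.55. Without CCI contralateral animal 1 the log2 fold change of Gal between the hemispheres of CCI mice was 1.18 with an adjusted p of 0.011. The part of dissected hypothalamus in the Gal differences was not tested. Of the galanin receptors, Galr1 averaged 0.744 ± 0.110 CPM in CCI ipsilateral and 0.905 ± 0.425 CPM in sham ipsilateral libraries and Galr2 0.349 and 0.334 CPM, and neither passed the filter on low counts. Galr3 was not analysed here.

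**Figure D4:**
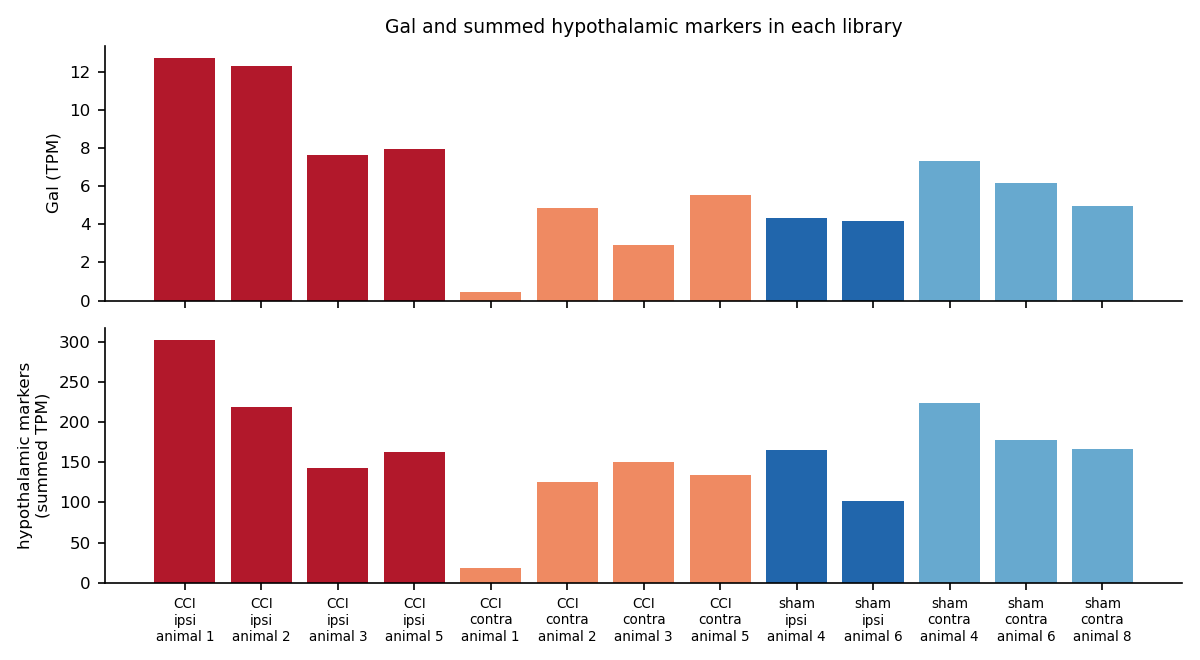
Gal (top, TPM) and the summed TPM of 10 hypothalamic markers (bottom) in each of the 13 libraries, as bars from 0 coloured by group. The library of CCI contralateral animal 1 is lowest in both panels, at 0.459 and 18.7 TPM, and CCI ipsilateral animals 1 and 2 are highest in Gal.

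On a scale that corrects for gene length (TPM, the authors' values), the 10 genes covered a wide range of levels. In CCI ipsilateral libraries Gap43 (367 ± 31.5 TPM) and Stmn2 (349 ± 8.07 TPM) stood far above the rest and did not differ from each other beyond their spread. Ecel1 (34.4 ± 3.80 TPM) and Klf6 (33.8 ± 1.85 TPM) followed with overlapping ranges, then Adcyap1 (20.9 ± 3.51 TPM) and Atf3 (15.6 ± 3.23 TPM), which also overlapped. Gadd45a, Gal, Sprr1a and Sox11 came last at 10.7, 10.1, 9.48 and 6.13 TPM, each overlapping its neighbour.

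In sham ipsilateral libraries Gap43 (354 ± 19.6 TPM) and Stmn2 (345 ± 10.1 TPM) again led, Klf6 (27.6 TPM) and Adcyap1 (17.1 TPM) stood ahead of Ecel1 (15.0 TPM), and Gal (4.24 TPM), Atf3 (1.63 TPM) and Sprr1a (0.714 TPM) were lowest. Neighbours in this order overlapped for Gap43 and Stmn2, Adcyap1 and Ecel1, and Atf3 and Sprr1a. Ecel1 ranked the third of the 10 in CCI ipsilateral and the fifth in sham ipsilateral libraries. In Atf3 the TPM of the sham libraries did not follow their counts: animal 6 had 5 counts and 1.91 TPM, against 7 counts and 1.35 TPM in animal 4.

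The contralateral hemispheres had nearly the order of the sham ipsilateral ones. Stmn2 and Gap43 stood at 365 ± 8.65 and 361 ± 27.8 TPM in CCI contralateral libraries and at 361 ± 11.5 and 374 ± 22.9 TPM in sham contralateral libraries, again without a difference between the 2 genes beyond their spread. Klf6 (29.0 and 26.5 TPM), Adcyap1 (17.4 and 18.7 TPM), Ecel1 (13.4 and 15.1 TPM) and Gadd45a (10.1 and 9.77 TPM) followed in CCI contralateral and sham contralateral libraries. Sox11 (4.27 and 4.81 TPM), Gal (3.44 and 6.16 TPM) and Atf3 (1.26 and 0.777 TPM) came next, and Sprr1a was last, at 0.0922 and 0 TPM.

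The genes also differed in how much libraries of a group varied. In CCI ipsilateral libraries the coefficient of variation in CPM was 1.52% for Stmn2, 4.42% for Klf6, 8.25% for Gap43 and 9.93% for Ecel1. It was 19.8% for Atf3, 27.8% for Gal and 30.7% for Sprr1a, the last 2 with under 40 counts per library. Animal 3 had the highest ipsilateral level of Atf3, Sprr1a and Ecel1, at 16.6, 4.65 and 47.9 CPM, and also the highest summed microglia and macrophage markers, 1947 TPM. For Gal animal 3 was the lowest of the CCI ipsilateral libraries, at 2.33 CPM.

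Genes with the most similar profile over the 13 libraries were found by the root mean square difference of centred log2 CPM, as a description with no test. For Atf3 they were Apoc2 (0.31), Fcgr4 (0.40) and Wfdc17 (0.40), and for Sprr1a F7 (0.50), C3ar1 (0.52) and Pirb (0.52), where the spread of Atf3 and Sprr1a themselves was 1.76 and 1.69. For Gal they included Gabrq (0.33) and Irs4 (0.34), and for Ecel1 they were Cyp1b1 (0.24), Ptafr (0.24) and Rin3 (0.26), against spreads of 0.84 and 0.64. For Sox11 the nearest was Mov10, for Klf6 Acox3, for Gap43 Tspyl2, for Stmn2 Atp5a1, for Adcyap1 Tmem39a and for Gadd45a Trib1, at differences of 0.03 to 0.11.

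Genes related to the 10 were counted in lists by role for the comparison of CCI with sham on the ipsilateral side, where 12.5% of all genes tested were higher and 10% lower, with a median log2 fold change of 0.0041. Other regeneration-associated genes mostly rose: 12 of 19 tested were higher and 1 lower, with a median of 1.497. Anxa2, a membrane-binding annexin, was higher by 1.81 ± 0.14 on the log2 scale. Timp1, an inhibitor of matrix metalloproteinases, had 267 counts in CCI ipsilateral and 1 in sham ipsilateral libraries, a ratio of 107 with a counting interval of 19.1 to 4259. Arg1, an arginine-degrading enzyme that regrowing neurons and alternatively activated macrophages share, had 275 counts in CCI ipsilateral libraries and 0 in sham ipsilateral ones, at least 36.9-fold higher against 3 counts over the sham group. Many of these genes are also made by macrophages, fibroblasts or astrocytes, whose markers rose as given above, and Arg1 is itself in the monocyte list.

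Transcription factors of the nerve injury response moved both ways, with 4 of 23 tested higher and 6 lower. Stat3, which carries signals of gp130 cytokines, was higher by 0.79 ± 0.09, while Klf9, which limits axon growth, was lower at -0.43 ± 0.07, Junb at -1.04 ± 0.15 and Egr1, induced by neuronal activity, at -1.48 ± 0.17. Sox4, a close relative of Sox11, rose by 0.47 ± 0.13 (28.8 ± 1.9 CPM in CCI ipsilateral and 20.7 ± 0.6 CPM in sham ipsilateral libraries, adjusted p 0.00713). Sox12 and Klf7, relatives of Sox11 and Klf6, stood at 0.12 and -0.12 and were not called.

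Growth cone and axonal cytoskeleton proteins had 3 of 17 higher and 6 lower, with a median of -0.03. Nrn1, a membrane-anchored neurite growth protein, fell to 107 ± 14 CPM in CCI ipsilateral libraries, against 172 ± 6.6 CPM in sham ipsilateral ones, by 0.68 on the log2 scale. Basp1, which resembles Gap43 in its place at the membrane, was lower at -0.48 ± 0.07 and Dpysl2, a tubulin carrier of axons, at -0.52 ± 0.09, while Tubb2b, a beta tubulin of young neurons and glia, was higher at 0.47 ± 0.08. Of the relatives of Stmn2, Stmn3 fell (-0.19 ± 0.06, adjusted p 0.0194) and Stmn1 (-0.02) and Stmn4 (-0.03) were not called.

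Of the peptide precursors and receptors around Gal and Adcyap1, 1 of 10 tested was higher and 6 were lower, with a median of -0.51. The 1 that rose was Adcyap1r1, the main PACAP receptor, which averaged 304 ± 19 CPM in CCI ipsilateral and 234 ± 16 CPM in sham ipsilateral libraries (0.38 ± 0.07, adjusted p 7.85e-05). Cck fell by 0.79, Sst by 0.56 and Npy by 0.51 on the log2 scale, 3 peptides of cortical neurons. Of the other receptors that bind PACAP, Vipr1 fell (-0.52 ± 0.15, adjusted p 0.0152) and Vipr2 stood at -0.57 ± 0.44 and was not called. Gal, at 1.20 with an adjusted p of 0.0493, leaned opposite to the 6 that fell. Its call was lost in 8 of 13 leave-outs and 6 of 9 other settings.

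Genes of the injury signal, kinases and others, were called only downward. In the dual leucine zipper kinase and axon degeneration pathway 0 of 11 tested were higher and 6 lower, with a median of -0.21: the JNK genes Mapk8 (-0.28), Mapk9 (-0.32) and Mapk10 (-0.30) and their upstream kinase Map3k13 (-0.55) were among those that fell. Dusp1, a phosphatase, fell as well (-0.57), and Map3k12, the dual leucine zipper kinase itself, was not called (-0.11, adjusted p 0.286). Neuronal markers fell in the same libraries, with a median of -0.33, and the part of that in these values was not tested. Of p53 and DNA damage targets with the Gadd45 family, 4 of 11 were higher and 0 lower, namely Trp53inp1 (0.55 ± 0.11), Eda2r (2.10 ± 0.56), Bax (0.45 ± 0.13) and Gadd45g (0.67 ± 0.21), with a median of 0.39. Gadd45b stood at -0.12 and was not called. Of amino acid and ER stress targets 3 of 9 were higher and 2 lower: the cystine transporter Slc7a11 rose by 0.76 ± 0.10 and the serine synthesis enzymes Psat1 and Phgdh by 0.23 ± 0.06 and 0.50 ± 0.14, while Asns, an asparagine synthetase under Atf4, fell by 0.24 on the log2 scale.

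**Figure D5:**
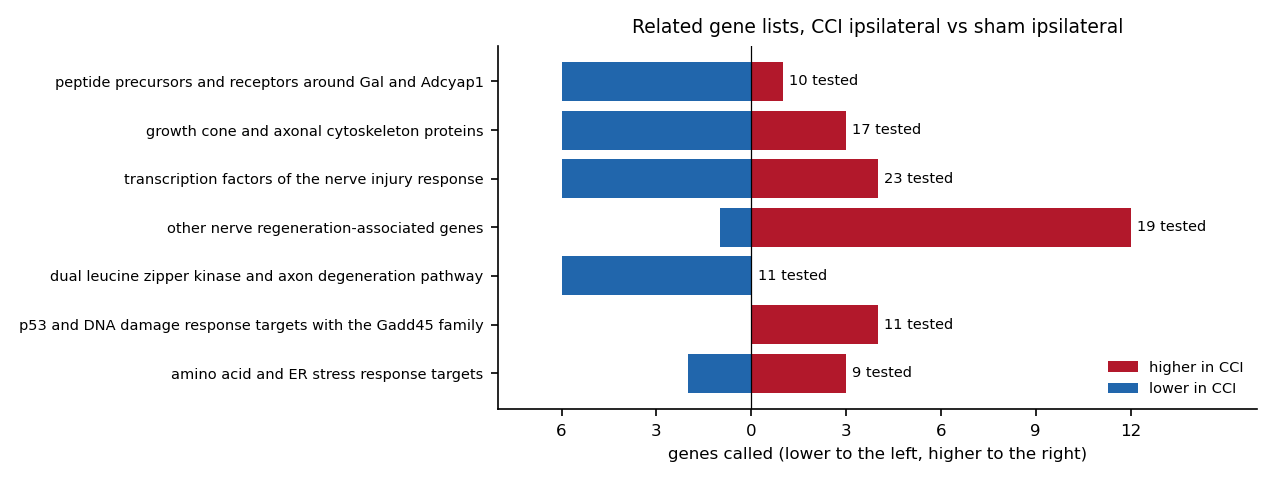
Number of genes called lower (left) and higher (right) in CCI ipsilateral over sham ipsilateral libraries in 7 lists of related genes, with the number tested beside each bar. Other regeneration-associated genes have 12 higher of 19 tested, while the dual leucine zipper kinase pathway has 0 higher and 6 lower of 11.

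Across the hemispheres of CCI mice the same lists were counted, with the CCI ipsilateral libraries shared between the comparisons and 12.8% of all genes tested higher and 8.9% lower. Other regeneration-associated genes had 13 of 19 higher and 0 lower, p53 targets 7 of 11 higher and 0 lower, and the kinase pathway list 0 of 11 higher and 6 lower. Growth cone proteins had 5 of 17 higher and 5 lower, and transcription factors 6 of 23 higher and 4 lower. Peptide precursors and receptors had 1 of 10 higher and 4 lower, and amino acid and ER stress targets 2 of 9 higher and 1 lower. In the difference of hemisphere effects between CCI and sham, 4.84% of all genes tested were higher and 2.99% lower. There 7 of 19 other regeneration-associated genes were higher and 0 lower. In the kinase pathway list 4 of 11 genes were lower and 0 higher, and 0 of 11 p53 targets were called. The other lists had 1 of 10 peptide genes higher and 3 lower, 2 of 17 growth cone genes higher and 1 lower, 1 of 23 transcription factors higher and 3 lower, and 1 of 9 amino acid and ER stress targets higher. Between the contralateral hemispheres of CCI and sham mice, and between the hemispheres of sham mice, 0 genes of any of these lists were called by edgeR.

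The authors' deposited table holds their own DESeq2 comparisons. For ipsilateral over contralateral in CCI mice the authors' deposited table gave log2 estimates of 3.65 for Atf3, 1.37 for Ecel1, 1.54 for Gal and 0.48 for Sox11, close to the log2 fold changes above. The adjusted p of Gal there, 0.0558 in the authors' deposited table, was not under 0.05. For CCI over sham in the ipsilateral hemisphere the authors' deposited table gave 2.43 for Atf3 (adjusted p 2.63e-05), 4.47 for Sprr1a, 1.09 for Ecel1, 0.50 for Gal (adjusted p 0.564) and -0.09 for Klf6 (adjusted p 0.766). In the authors' deposited table Stmn2 was lower there (-0.18, adjusted p 0.0173). For CCI over sham in the contralateral hemisphere the authors' deposited table gave -1.13 for Atf3 (adjusted p 0.482) and -0.22 for Klf6 (adjusted p 0.685), against 0.70 and 0.11 in the fit above, so the signs were opposite, and none of these was called. The cause of the differences was not tested.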

How the data were processed

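RNA-seq libraries of polyadenylated RNA were made with a stranded kit, per the labels' protocols. The authors deposited expected counts per gene (RSEM) and TPM, on GRCm38 (mm10), per the submitters' processing notes and the file headers. They also deposited a DESeq2 table with a log2 estimate, a signed fold change (a score), a p-value and an adjusted p-value per gene, per the file header. The aligner and the use of strand in counting were not given in the sources used here, so genes overlapping on opposite strands may share reads. Counts were rounded, as 9.76% of values were fractional.

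The main test was edgeR 4.0.16's quasi-likelihood test (R 4.3.3, robust, TMM, filterByExpr with minimum count 10), fitted once with 4 group means to the 13 libraries, so that the 2 sham ipsilateral libraries borrow the spread of the others. Benjamini-Hochberg adjustment covered the 14875 genes tested in each of 5 comparisons, at a threshold of 0.05. An adjusted p is edgeR's unless another tool is named. The SE was taken from the log2 fold change and edgeR's F statistic and is approximate. Intervals and floors (3 counts) of counts cover counting error only. The fits were tested on simulated data. Alternatives were DESeq2 1.42.0, limma 3.58.1 and the settings of the closing section.

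The labels name the animal, so numbers pair the hemispheres of a mouse. Deviations from group means correlated at 0.0035 to 0.0882 within the 6 pairs and at -0.0966 to 0.0966 between different animals, and the block term of limma voom put the within-animal correlation at 0.155. Replicate pairs differed by more than sampling noise (chi-square per degree of freedom 2.00 to 3.79 over 16 pairs).

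The 10 genes and the lists were chosen with earlier results of these data known. Map3k12 and Dusp1 were named as members of their list. Otherwise, named beside the 10 were up to 4 genes per list with the smallest adjusted p in CCI over sham ipsilateral, direct relatives and the genes of nearest profile. For 2 genes that this rule would name, values are not reported here. Of 227 listed genes 224 had a row. Positions are of whole genes in GENCODE M21, matched by identifier without version for 98.89% of genes.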

Additional observations from a re-analysis of the deposited data

Results flagged for a closer look

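Within groups of 4 libraries, the library farthest from the others was tested with Dixon's criterion for the 10 genes, over 20 groups, of which chance flags about 1 in 20. Sprr1a stood out in CCI contralateral animal 3, at 0.134 CPM (1 count) against 0 in the other 3 libraries, where any single count meets the criterion, so this says nothing of an outlying library. Stmn2 stood out in CCI ipsilateral animal 5, at 309.7 CPM against 319 to 320 CPM in the other 3.

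The hemisphere effect differed between CCI and sham mice in 3 genes by edgeR's interaction term. The difference of log2 fold changes was 3.07 for Atf3, 1.35 for Ecel1 and 2.09 for Gal. The Gal call was lost in 7 of 13 leave-outs and 4 of 9 other settings, and those of Atf3 and Ecel1 in 0. Atf3 passed the filter only through the CCI ipsilateral libraries.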

How the results depend on the processing

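The number of the 10 genes called between CCI and sham ipsilateral libraries was 3 with DESeq2's test and 3 with limma on log2(TPM + 1) without a filter, against 5, and leaving out single libraries gave 3 to 5. Atf3, Sprr1a and Ecel1 were called in that comparison and between the CCI hemispheres under every alternative run. Atf3 and Sprr1a passed the filter only through the CCI ipsilateral libraries, so for these 2 this is a description. In the comparison of CCI hemispheres the count was 4 to 7, with 7 under the animal as a replicate block (limma voom or edgeR), and in the interaction 2 to 4. Between contralateral hemispheres and in sham mice 0 of the 10 were called throughout. No called gene reversed. Of the values of single genes 1073 kept their side of the threshold, 32 lost the call and 11 gained it.

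With the animal as a block, calls over all genes numbered 3823 (limma voom) or 3796 (edgeR) between CCI hemispheres and 1456 or 1343 in the interaction. The block changed no other call than those of Gal, Klf6 and Stmn2 given in the report and that of Sprr1a in the interaction (adjusted p 0.0322 with limma voom). Gal between the CCI hemispheres was not called on log2(TPM + 0.1) (0.0617). Sprr1a in the interaction was called on log2(TPM + 1) (0.00142).

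Over all genes, CCI against sham ipsilateral called 3352, and 1675 without sham ipsilateral animal 6 or 2240 on unfiltered TPM. The interaction called 1165, and 393 without sham ipsilateral animal 6, 721 on log2(TPM + 0.1) or 539 on unfiltered TPM. CCI hemispheres called 3233, and 1947 on unfiltered TPM. The contralateral comparison called 14, with 1 to 106 under alternatives, and sham hemispheres 1, with 0 to 26. On TPM 73.2% of the calls of CCI against sham ipsilateral were higher, against 55.5% on counts, and likewise 74.5% against 59% between CCI hemispheres and 79.4% against 61.8% in the interaction. Gal and Sprr1a had under 40 counts per library, and sham ipsilateral 2 libraries, which limits the precision of their values.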
